A study of Mus musculus with 13 samples.

Results

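Txnip, Arrdc4, Arrdc1, Arrdc2 and Arrdc3, 5 of the alpha-arrestins, were followed together with Mlxip (MondoA) and Mlx, the transcription factor pair known to drive Txnip and Arrdc4, in mouse fibroblasts cooled from 37 °C to 32 °C. These 7 genes were read from 19938 genes with a row of their own in the value table, and all 7 had exactly 1 row. Txnip and Arrdc4 were chosen on their values in these arrays, namely their rise at 32 °C and their separation from 37 °C, so their values are given as a description without a test. The other 5 genes were chosen by family or partnership, and for them the adjusted p over all genes is given.

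The cells were primary fibroblasts of mouse embryos, bought from a supplier and kept in a high-glucose medium. The hypothermia series was held at 32 °C and the normothermia series at 37 °C, with 1 array at each of 0.5, 1, 2, 4, 8 and 18 h. A single array at 0 h, taken at 37 °C, starts both series, for a total of 6 arrays in the cold and 7 at 37 °C. Each array holds the pooled RNA of 3 dishes, no condition has a replicate array, and precision is limited by how few arrays there are. Values are array intensities on a log2 scale, on which a difference of 1 is a doubling. All 9 fibroblast markers examined, among them Col1a1 and Vim, had mean log2 intensities above the median of all rows (10.12 to 13.78), against none of 4 endothelial, 1 of 5 macrophage, 1 of 4 epithelial, 1 of 4 neural, 1 of 4 adipocyte and 2 of 4 skeletal muscle markers. The summed level of 4 neural markers, carried by Map2 (mean log2 intensity 10.30, the others 5.88 to 6.54), ranged from 10.01 to 10.64 at 32 °C and from 10.56 to 10.78 at 37 °C. That of 5 macrophage markers ranged from 8.69 to 9.09 at 32 °C and from 8.60 to 8.73 at 37 °C, with Cd68 at log2 intensities of 7.46 to 8.21 over the arrays and Ptprc, Adgre1, Csf1r and Lyz2 at means of 4.77 to 6.40, under the median of all rows. The part of either list in the results below was not tested.

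Alpha-arrestins are adaptor proteins that bring ubiquitin ligases of the NEDD4 family to membrane proteins, which are then taken into the cell. TXNIP also binds thioredoxin, the small protein that reduces oxidized proteins, and it lowers glucose uptake by removing glucose transporters from the cell surface, an action that ARRDC4 shares. MondoA, encoded by Mlxip, forms a dimer with MLX, responds to glucose 6-phosphate and then binds carbohydrate response elements in front of Txnip and Arrdc4, so that transcripts of both genes are used as a readout of glucose entering the cell.

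A carbohydrate response element is a pair of E-box-like hexamers 5 bases apart, and NF-Y, a factor that binds the CCAAT box, is known to assist at the Txnip promoter. The 250 bases before the start sites of Txnip and Arrdc4 are shown because both genes moved together and because they hold both kinds of letters. The sequences are from RefSeq on GRCm38.p6, 5′ to 3′ on the gene's strand. That of Txnip is chr3:96557707-96557956 on the plus strand, and that of Arrdc4 is chr7:68749239-68749488 on the minus strand. Capitals mark each CACGNG and each CCAAT on either strand.
Txnip: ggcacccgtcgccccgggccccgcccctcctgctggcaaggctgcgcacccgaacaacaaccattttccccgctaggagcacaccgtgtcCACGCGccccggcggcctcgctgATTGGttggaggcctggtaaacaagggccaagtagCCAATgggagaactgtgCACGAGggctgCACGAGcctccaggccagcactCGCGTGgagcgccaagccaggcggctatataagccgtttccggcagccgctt
Arrdc4: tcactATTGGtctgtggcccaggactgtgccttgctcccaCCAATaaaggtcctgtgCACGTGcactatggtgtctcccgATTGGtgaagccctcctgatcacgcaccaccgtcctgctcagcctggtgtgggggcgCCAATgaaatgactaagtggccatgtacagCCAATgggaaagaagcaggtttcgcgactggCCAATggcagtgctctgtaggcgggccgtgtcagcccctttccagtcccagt
These motifs were chosen after values and sequences had been seen, and a match is a string of letters, not a shown binding site. Txnip had 4 matches to CACGNG, of which those at positions -85 and -74 from the start site lie 5 bases apart on the same strand. Such a spaced pair stood in 15 of the 32851 upstream windows of this length in the table (0.0457%), and a window with at least 1 CACGNG was far more common (23.5%). Arrdc4 had 1 match to CACGNG, at -193, which is also the full E-box CACGTG (in 6.02% of windows; every CACGTG is also a CACGNG). The same E-box was found at -40 before Mlx. CCAAT was found 6 times before Arrdc4, as in 19 windows of all (6 or more matches, 0.0578%), and 2 times before Txnip (2 or more in 10.1%, 1 or more in 33.8%). Arrdc2 had 3 CCAAT matches (3 or more in 2.79% of windows), Mlxip and Mlx had 2 each and Arrdc1 had none. CACGNG was found 2 times before Arrdc1 (2 or more in 5.4% of windows), 1 time each before Arrdc2 and Mlx, and not before Mlxip. Arrdc2 and Mlx thus also held both kinds of letters, as Txnip and Arrdc4 did. Arrdc3 has 3 windows, and 2 of them held 1 CCAAT, while none held CACGNG. The map of matches by distance from the start site places the Txnip and Arrdc4 boxes side by side.

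**Figure D1:**
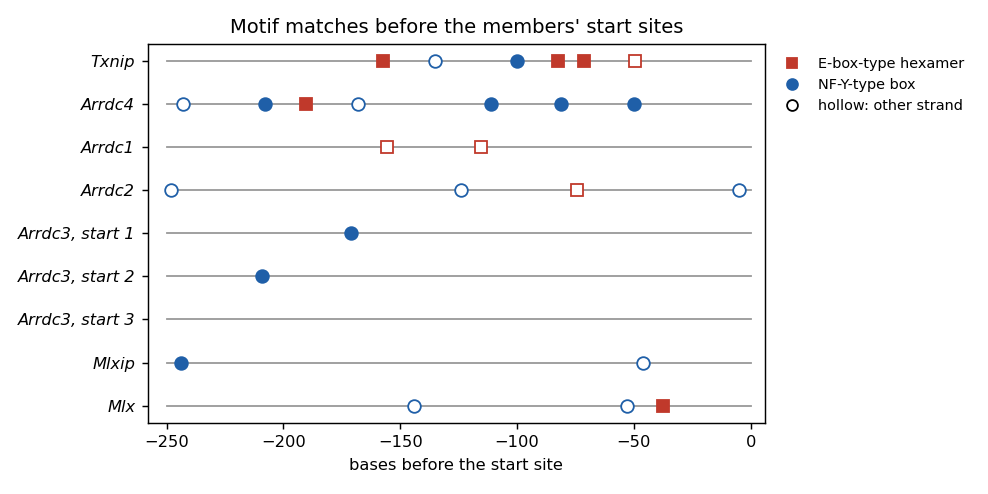
Matches to CACGNG (E-box-type hexamer, red squares) and to CCAAT (NF-Y-type box, blue circles) in the 250 bases before each start site of the 7 genes, by distance in bases from that site, with hollow symbols for the other strand. Txnip holds 4 hexamers and 2 boxes, and Arrdc4 holds 1 hexamer and 6 boxes.

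Txnip (thioredoxin-interacting protein) lies on chromosome 3 (96557957 to 96561857). Its log2 intensity was 10.32 at 0 h. At 37 °C it was 10.06, 9.79, 10.19, 10.72, 10.88 and 10.84 at 0.5, 1, 2, 4, 8 and 18 h. At 32 °C it was 10.27, 10.38, 10.49, 11.08, 11.24 and 11.32 at the same times. The level thus climbed in both series, and what set the series apart from the first hour was a fall at 37 °C that was almost missing at 32 °C. At 1 h and 37 °C Txnip stood at 0.694 of its 0 h intensity, and only 0.181% of all genes had fallen as far on that array. At 1 h and 32 °C it stood at 1.04 of the 0 h intensity. By 18 h it had reached 2.00 times the 0 h intensity at 32 °C and 1.44 times at 37 °C. Counted from its lowest value, the climb to 18 h was 2.07-fold in both series, from 0.5 h at 32 °C and from 1 h at 37 °C.

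The difference of the paired arrays, 32 °C minus 37 °C, was 0.21, 0.59, 0.30, 0.36, 0.36 and 0.48 for Txnip from 0.5 to 18 h. All 6 pairs were higher at 32 °C, by 0.38 ± 0.13 on the log2 scale (SD, n = 6 pairs) or 1.30-fold, and the order of the pairs followed no steady course in time. Across all genes, 4.80% were higher at 32 °C in all 6 pairs. The early pairs (0.5 to 2 h) averaged 0.37 ± 0.20 and the late pairs (4 to 18 h) 0.40 ± 0.07 (SD, n = 3 pairs each), so that the gap was about as wide in the first hours as at the end. Only the pair at 1 h reached 1.5-fold, as did 0.371% of all genes in that pair.

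**Figure D2:**
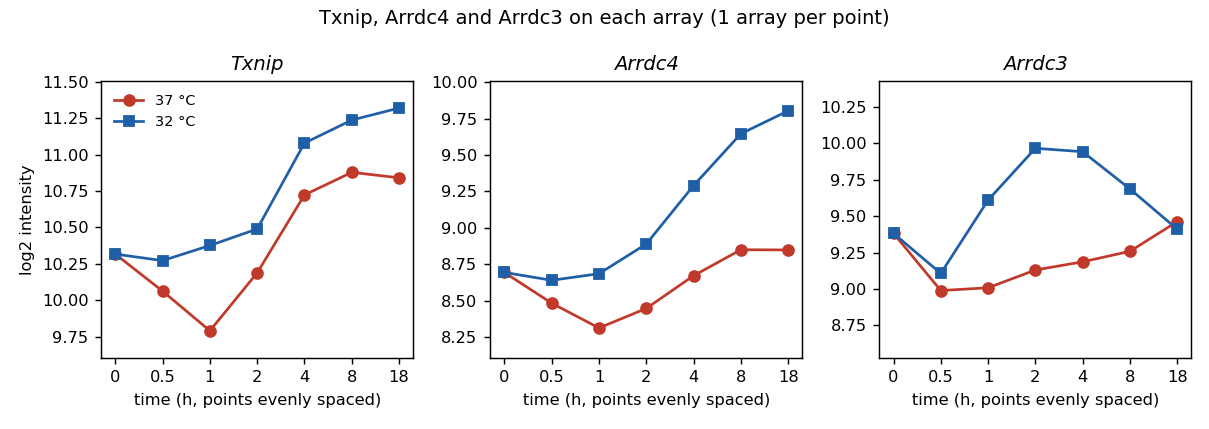
Log2 intensity of Txnip, Arrdc4 and Arrdc3 on each array at 37 °C (red circles) and 32 °C (blue squares) against time in hours with evenly spaced points; 1 array per point and the 0 h array drawn in both series. Txnip runs in parallel at both temperatures after 1 h, Arrdc4 separates steadily, and Arrdc3 peaks at 2 h at 32 °C and meets the 37 °C series at 18 h.

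Arrdc4 (arrestin domain containing 4, chromosome 7, 68736994 to 68749238) started from a log2 intensity of 8.69 at 0 h. At 37 °C it was 8.48, 8.31, 8.45, 8.67, 8.85 and 8.85 from 0.5 to 18 h. At 32 °C it was 8.64, 8.68, 8.89, 9.29, 9.65 and 9.80. Here too the low point at 37 °C fell on 1 h, at 0.768 of the 0 h intensity, and was not seen at 32 °C, where the 1 h value was 0.994 of it. At 32 °C Arrdc4 ended at 2.16 times its 0 h intensity, but at 37 °C at only 1.11 times. The 4 arrays from 2 h on at 32 °C were the 4 highest of all 13, so from that time the series did not overlap.

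Unlike that of Txnip, the Arrdc4 difference between paired arrays grew at every time point, being 0.16, 0.37, 0.44, 0.62, 0.80 and 0.95 from 0.5 to 18 h. The mean was 0.56 ± 0.29 (SD, n = 6 pairs), and that of the late pairs was 0.79 ± 0.17 (SD, n = 3 pairs) or 1.73-fold. At 18 h the pair differed 1.94-fold, and 8 genes of 19938 had a larger difference there. The pairs at 4, 8 and 18 h passed 1.5-fold, against 0.401%, 0.366% and 0.512% of all genes in these pairs.

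The fitted lines put numbers on this contrast between the paralogs. The time trend, the slope of the log2 value per time point over the 7 points, was 0.20 ± 0.03 (SE) for Txnip and 0.21 ± 0.03 for Arrdc4 at 32 °C. At 37 °C it was 0.15 ± 0.05 for Txnip and 0.06 ± 0.03 for Arrdc4. When each series had its own starting level, the slope at 32 °C exceeded that at 37 °C by 0.02 ± 0.03 per time point for Txnip and by 0.16 ± 0.02 for Arrdc4. The divergence from the common start, the slope of the paired differences on time order with the shared first array held at 0, was 0.09 ± 0.02 for Txnip and 0.16 ± 0.01 for Arrdc4. A gap of fixed width also yields a slope above 0 in this fit. With 7 points a series, Kendall's tau, the rank correlation with time, was 0.90 for Txnip and 0.81 for Arrdc4 at 32 °C, and 0.52 and 0.33 at 37 °C. The residual SD of the slope fits was 0.18 for both genes at 32 °C and 0.30 and 0.18 at 37 °C. It is the scatter around a straight line and includes any bend of the course. It is not the spread of a difference between single arrays. At 32 °C Txnip went from 10.49 to 11.08 between 2 and 4 h and from 11.24 to 11.32 between 8 and 18 h. At 37 °C it went from 10.19 to 10.72 between 2 and 4 h.

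Of all 10866 genes with a mean above the median signal, Arrdc4 had the profile most like that of Txnip (Pearson's r = 0.91 over the 13 arrays). Within the series r was 0.98 over the 6 arrays at 32 °C and 0.94 over the 7 at 37 °C. These arrays share a time course, so r is a description only. After Arrdc4, the profiles closest to Txnip were those of Mtus2 (0.90), Cpm (0.90), Tigd2 (0.89) and Zfp90 (0.89). Arrdc4 itself was closest to Commd9 (0.96), Sat2 (0.96), Ramp3 (0.95), Nqo1 (0.94) and Spryd3 (0.94), with Txnip in place 16. Nqo1, a quinone reductase that is a standard target of the oxidative stress factor NRF2, spanned log2 intensities from 9.59 to 11.25. The study itself picked Nqo1 from these arrays for its rise at 32 °C, and Arrdc4 was chosen on its rise too. Their r is therefore not independent evidence, and a link to NRF2 was not tested. Over the 13 arrays r with Txnip was 0.56 for Arrdc3, 0.43 for Arrdc2, 0.40 for Arrdc1, -0.33 for Mlx and -0.53 for Mlxip. Within a series some values were larger in size, such as 0.72 between Txnip and Arrdc3 and 0.84 between Arrdc4 and Arrdc3 over the 7 arrays at 37 °C, against 0.23 and 0.14 over the 6 at 32 °C. Mlx ran opposite to Txnip at 32 °C (r = -0.93) but not at 37 °C (0.37).

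Arrdc3, which steers the trafficking of membrane proteins, showed a transient course at 32 °C. The gene lies on chromosome 13 (80883384 to 80896042), and its log2 intensity was 9.38 at 0 h. At 37 °C it was 8.99, 9.01, 9.13, 9.19, 9.26 and 9.46 from 0.5 to 18 h. At 32 °C it was 9.11, 9.61, 9.97, 9.94, 9.69 and 9.41. Both series dipped at 0.5 h, to 0.762 of the 0 h intensity at 37 °C and 0.826 at 32 °C. The 37 °C series then climbed back over 18 h, while the 32 °C series reached 1.5 times the 0 h level at 2 h and had returned to 1.02 times by 18 h.

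The paired differences of Arrdc3 were 0.12, 0.60, 0.84, 0.76, 0.43 and -0.05, so 5 of 6 pairs were higher at 32 °C and the last was not. The 1, 2 and 4 h pairs passed 1.5-fold, which 0.371%, 0.366% and 0.401% of genes did, and at 2 h 24 genes had a larger difference. The mean over the pairs was 0.45 (95% interval 0.20 to 0.69, n = 6 pairs), with a limma adjusted p of 0.143, and did not pass. A straight line does not follow such a course: the slope at 32 °C was 0.06 per time point (95% interval -0.04 to 0.16, limma adjusted p = 0.559). The divergence was 0.10 per time point (0.02 to 0.17, limma adjusted p = 0.159), and without the 18 h arrays it was 0.16 with a limma adjusted p of 0.0445. The test of a difference between the slopes at 32 °C and 37 °C gave -0.04 ± 0.07 (SE, limma adjusted p = 0.818).

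**Figure D3:**
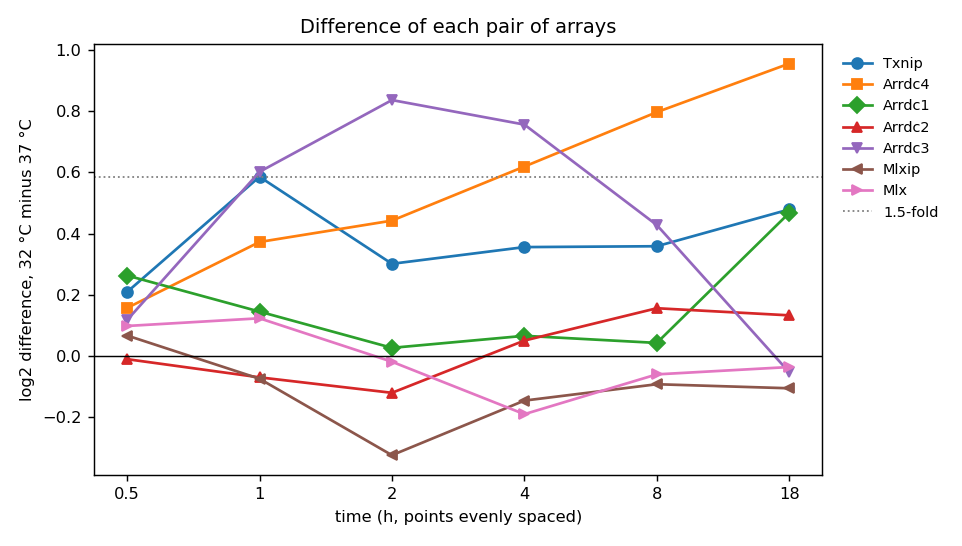
Difference in log2 intensity of each pair of arrays, 32 °C minus 37 °C, against time in hours with evenly spaced points, for the 7 genes; the dotted line marks 1.5-fold. Arrdc4 grows to 0.95, Arrdc3 peaks at 0.84 at 2 h, Txnip stays between 0.21 and 0.59, and Mlxip and Mlx lie near or under 0 from 2 h on.

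Arrdc1, which drives the budding of vesicles from the plasma membrane together with TSG101, had its widest gap on the last pair of arrays. Its log2 intensity (chromosome 2, 24925352 to 24935335) was 8.10 at 0 h and between 7.96 and 8.14 on the later arrays at 37 °C. At 32 °C it was 8.25, 8.24, 8.14, 8.02, 8.18 and 8.60 from 0.5 to 18 h, with the value at 18 h above all other arrays. The 6 paired differences were 0.26, 0.15, 0.03, 0.07, 0.04 and 0.47, all higher at 32 °C, as 4.8% of all genes were. Their mean was 0.17 (95% interval 0.03 to 0.31, limma adjusted p = 0.286, n = 6 pairs). Without the 18 h pair the mean was 0.11. Its late difference was 0.19 (95% interval -0.01 to 0.39, limma adjusted p = 0.295).

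Arrdc2 (chromosome 8, 70835129 to 70839720) had a mean log2 intensity of 7.19, just under the median of 7.21 over all rows. Its values ranged from 7.02 to 7.30 over the 13 arrays. The paired differences were -0.01, -0.07, -0.12, 0.05, 0.16 and 0.13, with 3 of 6 above 0 and a mean of 0.02 (95% interval -0.09 to 0.14, limma adjusted p = 0.888).

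For transcripts of the glucose-sensing factors Mlxip and Mlx, neither mean difference between the temperatures passed. Mlxip (MondoA, chromosome 5, 123394521 to 123457932) had a log2 intensity of 9.50 at 0 h. At 37 °C it was 9.50, 9.58, 9.68, 9.56, 9.60 and 9.39 from 0.5 to 18 h, and at 32 °C it was 9.57, 9.50, 9.35, 9.41, 9.51 and 9.28. The deposited value is identical on 3 of these arrays, as values repeat for 41.3% of genes. The paired differences were 0.07, -0.07, -0.32, -0.14, -0.09 and -0.10. Mlxip was thus lower at 32 °C in 5 of 6 pairs, with a mean of -0.11 (95% interval -0.23 to 0.01, limma adjusted p = 0.401). How many of all genes were lower in 5 of 6 pairs was not counted.

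Mlx, the partner that MondoA needs to bind DNA (chromosome 11, 101086707 to 101092207), stayed within 0.20 on the log2 scale over all 13 arrays, from 10.45 to 10.65. Its paired differences were 0.10, 0.12, -0.02, -0.19, -0.06 and -0.04, with a mean of -0.01 (95% interval -0.13 to 0.10, limma adjusted p = 0.942). On the shared 0 h array Mlx was at 10.53. At 32 °C it was 10.65 at 0.5 h and 10.45 at 18 h, and at 37 °C it was 10.48 at 18 h. The change from 0 h to 18 h at 32 °C was -0.08, and 27.6% of all genes fell at least as far. Its slope at 32 °C was -0.02 per time point (95% interval -0.06 to 0.01, limma adjusted p = 0.432). Intensities say nothing of where MondoA and MLX proteins are in the cell or whether they are bound to DNA.

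**Figure D4:**
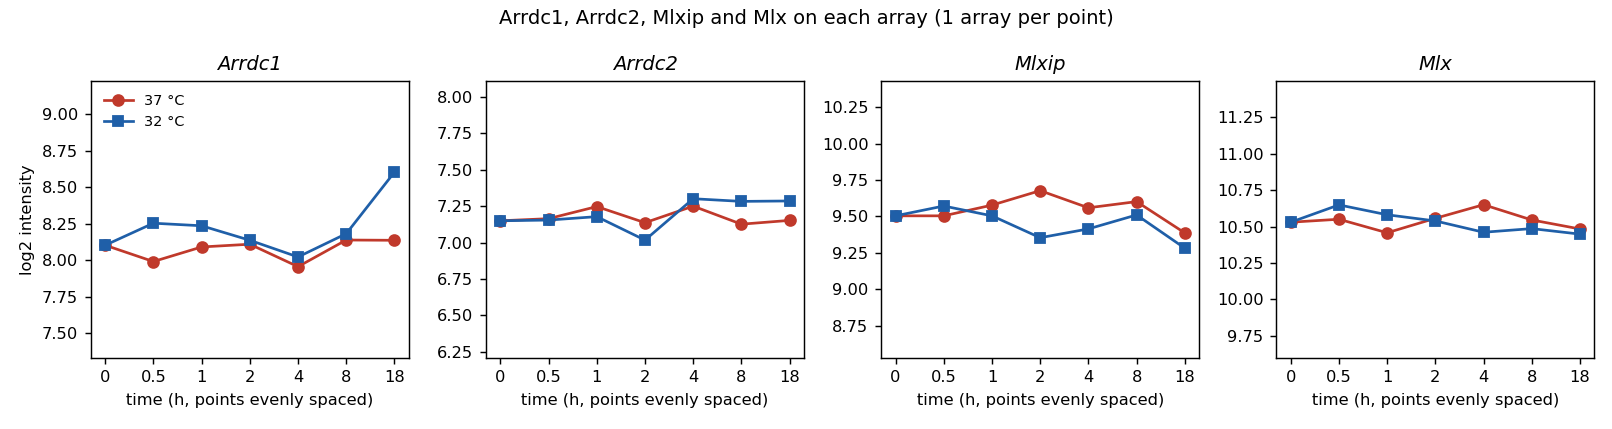
Log2 intensity of Arrdc1, Arrdc2, Mlxip and Mlx on each array at 37 °C (red circles) and 32 °C (blue squares) against time in hours with evenly spaced points; 1 array per point, the 0 h array drawn in both series, and all panels spanning the same height. Arrdc1 at 18 h and 32 °C (8.60) lies 0.47 above its pair, the widest gap of the 4 panels.

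None of the 5 genes chosen by family or partnership passed a limma adjusted p of 0.05 in any of the 5 comparisons. In the time trend at 32 °C, 0 of 5 passed (adjusted p 0.396 to 0.559; none at an unadjusted p under 0.05, as 16.5% of all genes were), where 0.0451% of all genes rose and 0.0502% fell. In the time trend at 37 °C, 0 of 5 passed (adjusted p 0.914 to 0.995, none unadjusted), and 0% of all genes rose and 0% fell. There 1156 genes (5.8%) were at an unadjusted p under 0.05. The exact Kendall test called 0 after adjustment. With 7 points its smallest possible p is 0.000397, too large for a lone gene to pass among 19938. In the divergence, 0 of 5 passed (0.159 to 0.712; Arrdc3, Arrdc1 and Mlxip unadjusted, as 18.4% of all genes), where 1.17% of all genes passed upwards and 1.66% downwards. In the mean difference at matched times, 0 of 5 passed (0.143 to 0.942; Arrdc3 and Arrdc1 unadjusted, as 13.5% of all genes), where 0.015% of all genes were higher and 0.0552% lower at 32 °C. In the late difference, 0 of 5 passed (0.236 to 0.478; Arrdc3 unadjusted, as 18.4% of all genes), where 0.802% were higher and 2.15% lower. At 8 and 18 h Arrdc4 alone of the 7 genes was past 1.5-fold, and at 0.5 h none of the 7 was, where 0.0401% of all genes were. Bulk RNA cannot tell more RNA per cell from more cells that hold it, and equal amounts of RNA were labelled, so every value is relative to the rest of the RNA on its array.

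The proteins that work with these genes were looked up in 8 lists, drawn up with earlier results of these arrays known. Txnrd1 and Txnrd3 are also genes the study itself picked from these arrays, so their direction here is not independent evidence. In the list of 5 thioredoxins and their reductases, the partners of TXNIP, 2 rose and none fell in the divergence, where 1.17% of all genes rose, and in the late difference, where 0.802% did. Both were thioredoxin reductases, which keep thioredoxin reduced. Txnrd1, the cytosolic enzyme, had paired differences of -0.03, 0.05, 0.17, 0.33, 0.63 and 0.39 and a late difference of 0.45 (95% interval 0.28 to 0.62, limma adjusted p = 0.0247). Txnrd3 had 0.20, 0.07, 0.12, 0.29, 0.50 and 0.51 and a late difference of 0.43 (0.28 to 0.59, limma adjusted p = 0.0193). Without the 8 h arrays neither gene passed in either comparison (limma adjusted p 0.0875 to 0.177). Of all genes, the divergence then called 40 in place of 565, and the late difference called 0 in place of 588. Thioredoxin itself, Txn1, was at 0.01 (-0.14 to 0.15, limma adjusted p = 0.979). The median late difference of the list was 0.01, as that of all genes was.

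Of 10 genes of the MAX and MLX network, which share E-boxes with MondoA and MLX, 1 fell and none rose in the divergence, where 1.66% of all genes fell, and in the late difference, where 2.15% did. It was Mga, a MAX partner of repressive complexes, with paired differences of -0.31, -0.08, -0.22, -0.55, -0.33 and -0.27 and a late difference of -0.38 (95% interval -0.55 to -0.22, limma adjusted p = 0.0344). Mlxipl (ChREBP), the paralog of Mlxip, was at 0.10 (-0.03 to 0.24, limma adjusted p = 0.406). Among 15 NEDD4-family ligases, their adaptors and ESCRT partners, Smurf2 alone fell in the same comparisons, against the same shares of all genes, and none rose. Its paired difference was near 0 at 0.5 h and then -0.03, -0.17, -0.34, -0.33 and -0.26, and its late difference was -0.31 (-0.45 to -0.17, limma adjusted p = 0.0369). The other row of Smurf2 in the table gave a late difference of -0.22 (limma adjusted p = 0.14). Neither Mga nor Smurf2 passed without the 8 h arrays (limma adjusted p 0.152 to 0.221), where 40 of all genes passed in the divergence and 0 in the late difference. Itch, a ligase that binds TXNIP, was at -0.19 (-0.36 to -0.02, limma adjusted p = 0.225).

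Of 13 measured energy sensors and other factors known to act on Txnip, 1 passed as lower at 32 °C in the late difference. None passed as higher, and 2.15% and 0.802% of all genes passed as lower and higher. Nfya, the subunit through which NF-Y is known to contact CCAAT, had paired differences of 0.15, 0.24, -0.48, -0.83, -0.62 and -0.39 and a late difference of -0.62 (95% interval -0.91 to -0.32, limma adjusted p = 0.0418). It was thus lower at 32 °C in the 4 pairs from 2 h on, while Txnip and Arrdc4 were higher in the same pairs. Without the 8 h arrays its limma adjusted p was 0.217, and 0 of all genes passed in the late difference there. The other NF-Y subunits were at -0.32 (Nfyb, -0.49 to -0.14, limma adjusted p = 0.0617) and -0.01 (Nfyc, -0.14 to 0.12, limma adjusted p = 0.959). None of the 5 measured cargoes of alpha-arrestins, the 8 other arrestin-fold proteins, the 10 measured genes of glucose entry and glucose 6-phosphate or the 14 other glucose-regulated targets passed in any comparison. The glucose transporter Slc2a1 (GLUT1), which TXNIP removes from the surface, was at 0.08 in the late difference (-0.04 to 0.21, limma adjusted p = 0.487). Klf10 and Pfkfb3, which also respond to glucose, were at -0.04 (-0.59 to 0.51, limma adjusted p = 0.953) and -0.18 (-0.32 to -0.03, limma adjusted p = 0.186). Klf10 was not flat, with paired differences of -0.24, -0.58, 1.06, 0, -0.29 and 0.16. Pfkfb3 was lower at 32 °C in all 6 pairs, as 2.92% of all genes were.

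**Figure D5:**
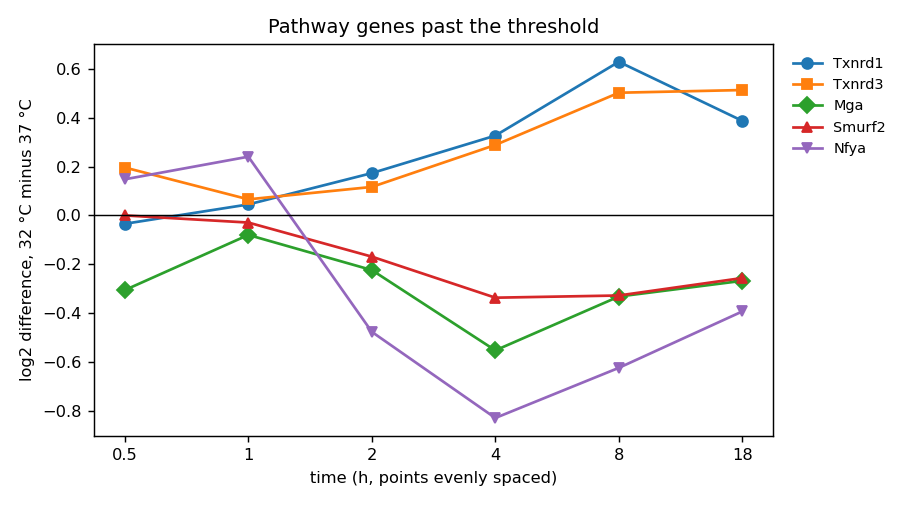
Difference in log2 intensity of each pair of arrays, 32 °C minus 37 °C, against time in hours with evenly spaced points, for the 5 genes of the 8 lists past the threshold in a comparison. Txnrd1 and Txnrd3 reach 0.63 and 0.51, Mga and Smurf2 lie at or under 0, and Nfya turns from 0.24 at 1 h to -0.83 at 4 h.

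The 9 calls on these 5 genes were also all lost without the 18 h arrays, and 7 of them without the 4 h arrays. Calls over all genes fell too. Without 18 h the divergence called 134 genes and the late difference 67. Without 4 h they called 58 and 362.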

How the data were processed

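The authors deposited 1 intensity value per transcript cluster and array on a linear scale (4.24 to 18146.4) for 13 Affymetrix Mouse Gene 1.0 ST arrays. The summarization and normalization of probes are not given in the sources used here. Array medians differed by 0.046 on the log2 scale, so values were log2 transformed as deposited. Single-probe values and detection calls were not used.

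Of 28853 rows, 23410 were listed in the platform annotation; 1621 carried several symbols and were left out, 21789 carried 1, and 21698 of these matched a mouse gene of GRCm38.p6 by Entrez identifier. The brightest row per gene by mean over the arrays gave 19938 genes. Probe positions were not used, so signal from near-identical copies or overlapping genes could not be examined. Fits used limma 3.58.1 (lmFit, eBayes) in R 4.3.3 across all genes, with 2-sided Benjamini-Hochberg adjusted p under 0.05 as the threshold. The 5 comparisons were the time trend at each temperature, on the order of time points (0 to 6); the divergence from the common start, with time as a block over all 13 arrays; the mean difference over the 6 pairs; and the late difference (4, 8 and 18 h) beside an early one. With 1 array per condition, the p-values rest on the scatter of arrays around the fitted lines or pairs and not on replicates. The script was tested on simulated data.

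The members, lists and tests were chosen with earlier results of these data known. Named genes are the 7 members, list genes past the threshold (up to 4 per list and comparison), and the 5 genes most like Txnip and the 5 most like Arrdc4 by Pearson's r among genes above the median signal; Txn1, Mlxipl, Itch, Nfyb, Nfyc, Slc2a1, Klf10 and Pfkfb3 were named from the lists for their known role after values were seen. List genes without a row of their own were not analysed here. All 7 members were found in the promoter table. The alternatives were quantile normalization, relative ranks, genes above the median signal, all rows, leaving out each time point, hours on a log2 axis, a separate term for 32 °C, late arrays only, and Kendall's tau. Figures were drawn with matplotlib 3.10.9.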

Additional observations from a re-analysis of the deposited data

How the results depend on the processing

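Txnip and Arrdc4 kept their direction in all alternatives of the 5 comparisons. Both were chosen on that direction, so this is a description. Some alternatives also cannot change the coefficient of a member. These are all rows, genes above the median signal, leaving out 2 h in the time trends, and leaving out 0 h in the divergence. In the late difference they are late arrays only and leaving out early arrays. Such values are part of the 284 below. The Txnip divergence was 0.021 with a separate term for 32 °C in place of 0.09; every alternative that leaves out a time point kept it between 0.08 and 0.10. Leaving out 1 time point put the slope at 32 °C between 0.19 and 0.24 for Txnip and between 0.20 and 0.26 for Arrdc4, the slope at 37 °C between 0.13 and 0.22 for Txnip and between 0.042 and 0.10 for Arrdc4 (highest without 0 h in each), and the late difference of Arrdc4 between 0.71 and 0.88. For Arrdc1, Arrdc2, Arrdc3, Mlxip and Mlx, 284 alternative values stayed on their side of the threshold and 1 did not, the divergence of Arrdc3 without 18 h (0.16, limma adjusted p = 0.0445; range over leaving out a time point 0.075 to 0.16). Of the 9 calls on Mga, Smurf2, Txnrd1, Txnrd3 and Nfya, 4, 3 and 3 were lost without the 0.5, 1 and 2 h arrays, 8 on relative ranks, 2 after quantile normalization, 2 on the other row of Smurf2, all 5 late calls on the late arrays only and all 4 calls of divergence with the separate term. Counts of genes over the whole table moved more. The time trend at 32 °C called 19 genes, and 52 after quantile normalization, 2 on relative ranks and 225 above the median signal. It called 95 on log2 hours and 2 to 23 without a time point. The exact Kendall test called 0, but with 7 points its smallest possible p is 0.000397, so this 0 is limited by the design. The divergence called 565 genes, 167 on relative ranks, 4 with a separate term for 32 °C and 40 (8 h) to 627 (1 h) without a time point. The matched difference called 14 genes, 0 after quantile normalization and on relative ranks, 5 over all rows and 0 to 7 without a time point. The late difference called 588 genes, 0 on relative ranks, 4 on the late arrays only and 0 (8 h) to 490 (2 h) without a time point. The cause was not tested. Other rows of the members could not be tried, as each has 1 row. No detection calls were used, so the limit that background sets on dim rows such as Arrdc2 is unknown.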
